A study of Mus musculus with 17 samples.

Results

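To describe open chromatin at distal AP-1 sites in neurons of the nucleus accumbens, peak regions were chosen that lay away from gene starts and held an AP-1 motif at their summit. Overlapping peaks of 17 ATAC-seq libraries on chromosomes 1 to 19 formed 277655 merged regions, of which 145224 (52.3%) were called in at least 2 libraries of the same group. Of these, 104851 lay more than 3 kb from every annotated transcript start and are termed distal. The distal AP-1 regions were the 11649 distal regions (11.1% of distal and 8.02% of kept regions) with TGACTCA or its reverse complement TGAGTCA within 100 bp of the summit of their strongest peak. The other 93202 distal regions, without this motif at the summit, served for comparison. No difference between cocaine and control entered the choice, but libraries of both did: 108 of the regions were called in diestrus cocaine libraries only and 86 in proestrus cocaine libraries only.

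ATAC-seq reads mark DNA into which a transposase can insert adapters. Neuronal nuclei were sorted with an antibody against NeuN, a nuclear protein of neurons, from the bilateral nucleus accumbens of C57BL/6 mice aged 52 to 54 days, and each library pooled 3 animals. Females in diestrus (low estrogen, high progesterone), females in proestrus (high estrogen, low progesterone) and males either received cocaine (10 mg/kg, intraperitoneally) and were killed 1 hour later, or were controls that were not given cocaine. The paper describes the controls as a baseline and mentions no injection of them. Differences after cocaine therefore cannot be told apart from those after an injection alone. There were 2 libraries of cocaine-treated males and 3 of each of the other groups. The proestrus libraries after cocaine were numbered 1, 2 and 4. Diestrus cocaine library 2 carried no stage in its labels and was assigned by its title.

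AP-1 is a family of transcription factors formed by pairing of Fos proteins (Fos, Fosb, Fosl1, Fosl2) with Jun proteins (Jun, Junb, Jund), related to the ATF, BATF and JDP proteins. The dimers bind the palindrome-like TPA response element, and many of their sites lie in enhancers far from gene starts. In striatal neurons the genes for Fos and Fosb are switched on rapidly by psychostimulants and other strong stimulation. A motif in an open region is a stretch of letters and does not show that a factor was bound.

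Sequences of 10 regions are given first because the results below turn on them. They comprise the most accessible region (near Zfp869), regions that rose in diestrus (Aldoart1, Ghsr) or proestrus (Perp, Pde4d) after cocaine, regions with peaks in every female cocaine library and no female control library (Mms22l, Msrb2), and regions that rose (Gdi2) or fell (Tmem161b, Dnajb9) in males. Each window covers the summit and 100 bp on either side, 5′ to 3′ on the plus strand of GRCm38 (mm10), with the AP-1 sites in capitals. Regions are called by the protein-coding gene with the nearest transcript start, which need not be a gene they act on.
Region near Zfp869, chr8:69716929-69717129, plus strand: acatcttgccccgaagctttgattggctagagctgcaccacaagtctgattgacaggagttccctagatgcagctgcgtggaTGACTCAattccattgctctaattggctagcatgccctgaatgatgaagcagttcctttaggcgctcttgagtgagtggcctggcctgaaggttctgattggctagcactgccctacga
Region near Aldoart1, chr4:72664548-72664748, plus strand: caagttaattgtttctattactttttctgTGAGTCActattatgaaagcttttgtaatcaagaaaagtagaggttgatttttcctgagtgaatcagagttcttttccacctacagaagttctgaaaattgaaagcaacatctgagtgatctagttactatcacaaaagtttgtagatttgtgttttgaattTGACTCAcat
Region near Ghsr, chr3:27446677-27446877, plus strand: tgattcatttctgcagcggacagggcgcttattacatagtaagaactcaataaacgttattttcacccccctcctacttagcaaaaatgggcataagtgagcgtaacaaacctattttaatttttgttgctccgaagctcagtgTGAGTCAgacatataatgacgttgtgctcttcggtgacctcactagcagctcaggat
Region near Perp, chr10:18861567-18861767, plus strand: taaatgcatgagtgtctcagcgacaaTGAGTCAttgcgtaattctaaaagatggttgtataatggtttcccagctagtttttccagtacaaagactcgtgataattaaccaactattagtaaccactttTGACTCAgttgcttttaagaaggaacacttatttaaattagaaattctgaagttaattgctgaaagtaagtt
Region near Pde4d, chr13:109694242-109694442, plus strand: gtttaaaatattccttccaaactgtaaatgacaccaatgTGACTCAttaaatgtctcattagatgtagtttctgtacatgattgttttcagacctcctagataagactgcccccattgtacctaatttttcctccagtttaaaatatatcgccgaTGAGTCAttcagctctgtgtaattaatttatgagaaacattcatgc
Region near Mms22l, chr4:24569307-24569507, plus strand: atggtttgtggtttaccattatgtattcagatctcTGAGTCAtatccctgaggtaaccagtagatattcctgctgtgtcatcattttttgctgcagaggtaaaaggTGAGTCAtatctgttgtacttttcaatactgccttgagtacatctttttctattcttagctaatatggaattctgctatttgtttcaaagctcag
Region near Msrb2, chr2:19300779-19300979, plus strand: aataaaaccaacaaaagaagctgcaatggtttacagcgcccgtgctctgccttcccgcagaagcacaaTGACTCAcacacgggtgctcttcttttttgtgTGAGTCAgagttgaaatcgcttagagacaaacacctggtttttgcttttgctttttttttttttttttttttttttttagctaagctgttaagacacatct
Region near Gdi2, chr13:3373004-3373204, plus strand: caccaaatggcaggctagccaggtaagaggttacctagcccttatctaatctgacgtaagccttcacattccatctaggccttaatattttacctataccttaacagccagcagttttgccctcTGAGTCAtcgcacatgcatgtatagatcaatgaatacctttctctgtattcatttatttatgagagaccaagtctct
Region near Tmem161b, chr13:84613140-84613340, plus strand: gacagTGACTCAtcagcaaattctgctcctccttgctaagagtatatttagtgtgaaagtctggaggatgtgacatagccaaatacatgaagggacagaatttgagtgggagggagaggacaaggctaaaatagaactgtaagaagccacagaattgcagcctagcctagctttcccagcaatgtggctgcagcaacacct
Region near Dnajb9, chr12:43827269-43827469, plus strand: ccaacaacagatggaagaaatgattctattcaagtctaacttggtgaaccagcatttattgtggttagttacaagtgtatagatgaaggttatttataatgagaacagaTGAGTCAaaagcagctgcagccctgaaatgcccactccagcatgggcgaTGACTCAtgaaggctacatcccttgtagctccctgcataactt
The windows near Aldoart1, Perp, Pde4d, Mms22l, Msrb2 and Dnajb9 each held 2 sites, and the other 4 windows held 1.

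AP-1 sites were concentrated at the summits of distal regions. The motif occurred in 11.1% of windows at the summit, against 3.37% of windows of the same length 500 bp away and 3.46% of those at double that distance. The nearest site of a distal AP-1 region was centred a median of 40 bp from the summit. In 26.6% of the regions it was within 20 bp and in 60.6% within 50 bp. Most regions (10728) held 1 site, 842 held 2 and 79 held 3 or more, with a maximum of 8. The base just before the site was A in 33.9% and the base just after was T in 33.2%, compared with 25.2% and 21.6% for sites 500 bp from distal summits. T just before the site occurred in 9.08%, against 19.4% at that distance.

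**Figure D1:**
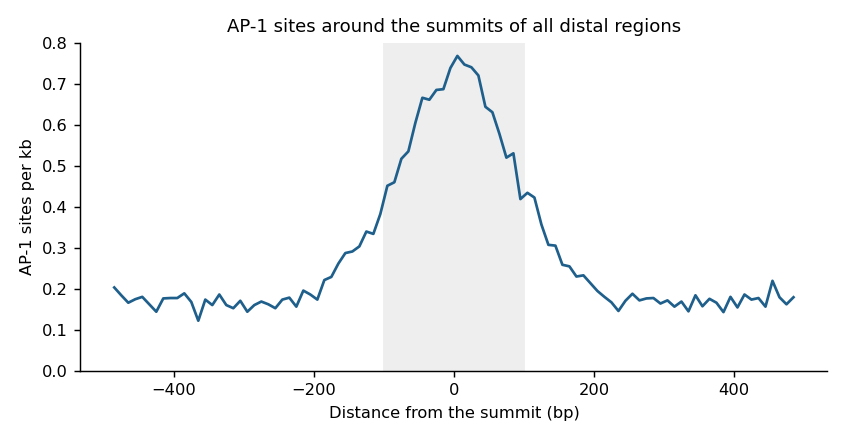
AP-1 sites (TGACTCA or TGAGTCA) per kb, in bins of distance (bp) from the summit, over all 104851 distal regions. The grey band marks the 100 bp on either side of the summit within which a site made a region a distal AP-1 region, so the peak there reflects all distal regions and not a selection.

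Shares of other motifs in distal AP-1 regions lay above or below those in the other distal regions. CCACNAGG, the core of the site of the architectural protein CTCF, was in 2.27% of distal AP-1 windows and in 3.81% of the others. The cAMP response element TGACGTCA, bound by CREB, was in 0.249% and 0.277%. The E-boxes CAGCTG and CAGATG, bound by basic helix-loop-helix factors, were in 13.1% and 19.6%, against 11.7% and 18.1%. GGGCGG, the GC box of SP and KLF proteins, was in 3.57% against 4.02%, and the EGR motif GCGTGGGC in 0.352% against 0.483%. For the MEF2 motif CTAAAAATA the shares were 1.47% and 1.58%, for the forkhead motif TGTTTAC 1.70% and 2.13%, and for the POU motif ATGCAAAT 2.01% and 2.20%. Both strands were searched, and these shares carry no test. The site with its preferred flanks, ATGACTCAT or ATGAGTCAT, occurred in 1316 distal AP-1 regions (11.3%).

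The regions lay mostly within genes and were called in more libraries than other distal regions. Introns held 59.0% of them, intergenic DNA 38.0% and exons 2.98%, compared with 62.0%, 33.8% and 4.17% of the other distal regions. Their median width was 659 bp, the median GC content of the window around the summit was 44.3%, and the nearest protein-coding start was a median of 36605 bp away. The corresponding values of the other distal regions were 657 bp, 43.8% and 31994 bp. All 17 libraries called 3189 (27.4%) of the distal AP-1 regions, but 17.8% of the other distal regions. At most 3 libraries called 16.5% and 24.1%, respectively. Between 10.4% and 12.3% of the distal regions of each of the 19 chromosomes were distal AP-1 regions.

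Long neuronal genes were nearest to the largest numbers of distal AP-1 regions. The regions were nearest to 5176 protein-coding genes, of which 2804 had 1 region and 565 had 5 or more. Rbfox1, a neuronal splicing regulator, had 32, Dlg2, a postsynaptic scaffold, had 29, and Nrxn3, a presynaptic adhesion molecule, had 24. They were followed by Magi2 (22), Celf2 (21), Grm7 (20) and Kirrel3 (19), and by Cacna2d3, Csmd1 and Lsamp (18 each). For Rbfox1 the regions were 8.18% of the 391 distal regions assigned to it, for Dlg2 11.2% of 259, and for Magi2 14.7% of 150, so that large numbers went with large numbers of distal regions of any kind. These 10 genes spanned 551 to 2197 kb.

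The limits of the definition separated regions of like accessibility. The 628 regions that lay past 3 kb from a start by 1 kb or less had a median fold enrichment over libraries of 2.70, and 699 regions with a site at the summit that missed that limit by 1 kb or less had 2.62. Regions whose nearest site reached 91 to 100 bp from the summit (839) had a median of 2.46, and 755 regions with a site only within 110 bp had 2.53.

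Libraries differed in depth and yield. They held 74532 to 155025 peaks on chromosomes 1 to 19, with a background pileup of 6.26 to 9.55 reads. The male cocaine libraries had the fewest (86626 and 74532) and diestrus cocaine library 1 the most. Reads can be present where no peak was called, so a missing call means only that the region was not called at this depth. In these bulk libraries, fewer cells of a type and less open chromatin per cell cannot be told apart. Promoter peaks (within 1 kb of a start) at the neuronal genes Rbfox3, Snap25 and Syt1 and at the 6 medium spiny neuron genes Drd1, Drd2, Ppp1r1b, Adora2a, Penk and Tac1 were called in all 17 libraries. Promoters of other cell types were called too, those of Mbp (oligodendrocytes) in 17 libraries, of Gfap (astrocytes) and Pdgfra (precursors) in 16 each, of Slc17a7 (cortical excitatory neurons) in 10, of Aif1 and P2ry12 (microglia) in 8 each, and of Pecam1 (endothelium) and Pvalb (interneurons) in 7 each. The remaining promoters of these lists were called in 1 to 5 libraries, except Cx3cr1 (microglia), Cldn5 and Flt1 (endothelium) and Chat (cholinergic interneurons), which were called in none.

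The 5 most accessible distal AP-1 regions were called in every library. Fold enrichment is the number of reads at a summit over the background pileup of that library, each plus 1. Where a library had several peaks in a region, the highest was taken. In wide regions, such as those near Bcr (46684 bp) and Wscd2 (11882 bp), libraries may therefore be measured at different summits. The region near Zfp869, a zinc finger gene (chr8:69715086-69717892, intergenic, 4.36 kb upstream of the start), had a median of 59.8 over libraries and ranged from 42.9 in proestrus control library 1 to 74.9 in male control library 2. Those near Wscd2 (chr5:113585252-113597133), Lzts1 (chr8:69145839-69152800), Ppp2r2a (chr14:67118321-67122364) and Bcr (chr10:75093088-75139771) had medians of 31.2, 27.9, 25.5 and 25.3. The region near Wscd2 ranged from 18.6 in diestrus cocaine library 3 to 47.0 in diestrus control library 3. Of these 5, only the region near Wscd2 passed the test in males, and none passed in diestrus or proestrus. It had 42.1, 25.6 and 33.9 in male controls and 31.5 and 31.2 after cocaine, which overlapped before centring of each library on its median. The centred log2 difference was 0.43 ± 0.12 (SE, limma adjusted p = 0.00778). All 5 held 1 site each.

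After cocaine, females had a larger excess of called distal AP-1 regions over other distal regions. In diestrus controls the share of distal AP-1 regions called was 56.3%, 61.6% and 65.3%, which exceeded that of other distal regions by 4.59, 5.28 and 5.09 percentage points. The excess was 13.8, 19.1 and 16.9 points in the diestrus cocaine libraries, whose own shares were 74.7%, 66.2% and 56.5%. Every cocaine library lay above every control library in the excess, whereas the shares themselves overlapped. Proestrus controls had shares of 51.9%, 50.8% and 55.5% and an excess of 6.41, 5.72 and 5.85 points. After cocaine the shares rose to 71.9%, 58.7% and 68.9% and the excess to 16.7, 10.7 and 15.5 points, without overlap in either measure. No p was computed for these summed values. Mean ± SD of the excess was 4.98 ± 0.357 points in diestrus controls and 16.6 ± 2.65 after cocaine, and 5.99 ± 0.369 and 14.3 ± 3.17 in proestrus (n = 3 each).

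In males the share fell in all distal regions alike. Distal AP-1 regions were called at 72.9%, 69.4% and 73.8% in the controls and at 45.7% and 38.4% after cocaine. The excess over other distal regions was 6.52, 7.30 and 5.54 points in controls and 8.91 and 7.43 points after cocaine. These ranges lay next to each other without overlap, but the difference of means was 1.71 points and became -0.722 when each library was limited to its 74532 strongest peaks. Under the same limit the female differences were 9.72 points in diestrus and 8.41 in proestrus. For the 287 distal regions with a cAMP response element, cocaine minus control in the mean share called was -3.83 points in diestrus, 9.18 in proestrus and -29.2 in males, beside 4.74, 13.8 and -30.0 for distal AP-1 regions and -6.86, 5.48 and -31.7 for other distal regions.

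**Figure D2:**
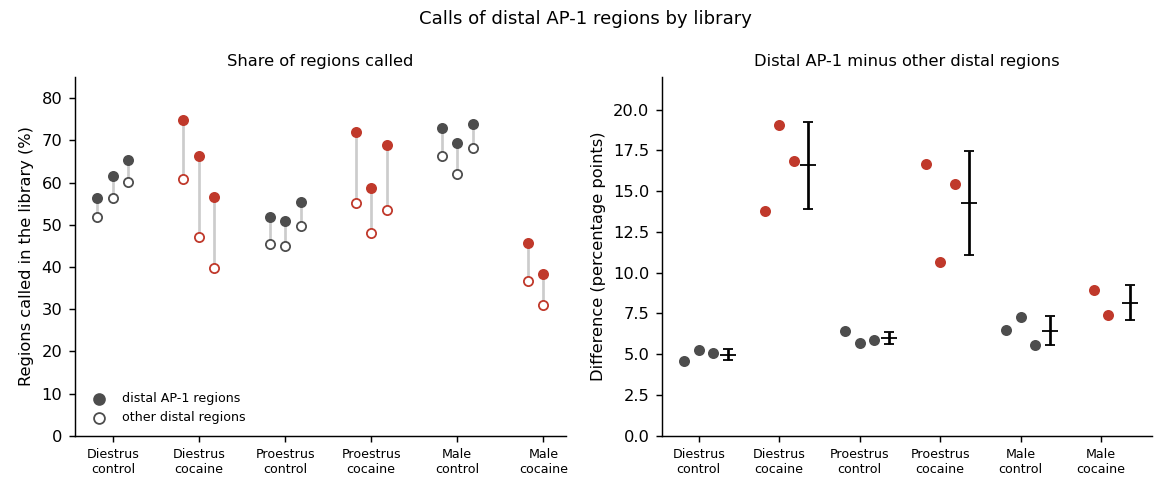
Left, share (%) of distal AP-1 regions (filled) and other distal regions (open) called in each of the 17 libraries, controls in grey and cocaine in red. Right, the difference of the 2 shares in percentage points, with the mean and SD of each group (n = 3, male cocaine n = 2). Female cocaine libraries reach 10.7 to 19.1 points, and the other libraries lie between 4.59 and 8.91.

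Regions were counted as gained when every cocaine library and no control library of a sex and stage called them, and as lost in the converse case. In diestrus 313 distal AP-1 regions (2.69%) were gained and 53 (0.455%) lost, where 1.12% and 1.28% of all kept regions were gained and lost. In proestrus 537 (4.61%) were gained and 60 (0.515%) lost, against 2.42% and 1.65% of all kept regions. Gains thus exceeded losses in both stages among distal AP-1 regions. Leaving out 1 library means that fewer calls are required, so these counts could only rise, but they rose unequally. Without diestrus cocaine library 1, 545 (4.68%) were gained and 470 (4.03%) lost in diestrus, against 2.48% and 7.33% of all kept regions. Without diestrus cocaine libraries 2 or 3, 63 and 55 were lost. Without proestrus cocaine library 2, 1263 (10.8%) were gained in proestrus, against 6.25% of all kept regions. Without proestrus cocaine libraries 1 or 4, 629 and 705 were gained. The cause of the unequal rise was not tested. Among regions with 2 or more sites, 4.67% were gained in diestrus and 6.30% in proestrus, and among those with 1 site 2.52% and 4.46%.

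In males 2096 distal AP-1 regions (18%) were lost and 89 (0.764%) gained, with 16.7% of all kept regions lost and 1.68% gained. The lost share was near that of all kept regions. With equal numbers of peaks per library 822 (7.06%) were lost and 234 (2.01%) gained, against 5.95% and 2.63% of all kept regions. Of the 2096, every one of the 6 female cocaine libraries called 268 (12.8%), and none of them called 644 (30.7%). Of all kept regions lost in males these were 9.24% and 34.5%. The male cocaine libraries had the fewest peaks of all libraries, and the part of this in the losses was not tested.

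Gains in both female stages were shared by 74 distal AP-1 regions. These made up 0.635% of the distal AP-1 regions, while 0.186% of the other distal regions were gained in both, and 1 distal AP-1 region was lost in both. The 2 stages have separate controls. All 3 male control libraries called 20 of the 74 (27%), and no male library called 30 (40.5%), beside 28.0% and 30.8% of all kept regions gained in both stages. No protein-coding gene was nearest to more than 1 of them. The strongest lay in an intron of Mms22l, a DNA repair gene (chr4:24569141-24569576, 9.27 kb from the start). Its fold enrichment was 4.75, 5.66 and 5.28 in diestrus cocaine libraries and 4.11, 3.53 and 3.87 in proestrus cocaine libraries. No control library of either sex had a peak there, and male cocaine library 1 had one of 3.72. Both of its AP-1 sites, shown above, read TGAGTCA on the plus strand.

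The other leading regions gained in both stages differed in their calls in males. The region near Msrb2, a methionine sulfoxide reductase, lay in an intron of Armc3 (chr2:19300654-19301107) and had 5.58, 5.16 and 3.22 in diestrus and 3.81, 3.64 and 3.25 in proestrus after cocaine. Male control library 3 called it at 3.18. A region within Ly86 (chr13:37364339-37364748), which encodes a partner of the Toll-like receptor homologue RP105, had 3.92, 5.03 and 3.22 and then 4.21, 3.42 and 4.40 after cocaine. Here all 3 male controls had peaks (2.42, 3.03 and 2.96) and neither male cocaine library did. The regions near Pth2r (in an exon of Pikfyve, chr1:65245638-65246077), Dppa4 (chr16:47536549-47536974) and Gm10801 (chr2:98086727-98087228) were called in the 6 female cocaine libraries and in no other. Those near Gm4340 (chr10:104595768-104596322) and Ttll7 (chr3:147175439-147176345) had peaks in 4 and 2 of the 5 male libraries. Over these 8 regions the median fold enrichment in female cocaine libraries lay between 3.69 and 4.43.

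Over all 8 cocaine and 9 control libraries no single region passed the test of calls. Of 63463 regions called in 4 to 13 libraries, 5052 were distal AP-1 regions, and 0 of them (0% of all regions) had an adjusted p below 0.05 in Fisher's exact test with Benjamini-Hochberg adjustment. The smallest adjusted p was 0.143. At an unadjusted p below 0.05, 443 distal AP-1 regions (8.77%) were called more often after cocaine and 233 (4.61%) less often, where the shares of all regions tested were 3.73% and 9.31%. With equal numbers of peaks, 671 of 3491 distal AP-1 regions (19.2%) had more calls after cocaine and 74 (2.12%) had fewer, again at an unadjusted p below 0.05. The background moved too, since 9.06% of all 35007 regions tested in this setting had more calls and 5.58% had fewer.

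Fold enrichment was then compared in regions called in every library of a comparison, on a log2 scale centred on the median of each library. The p-values of limma measure the spread between libraries, each a pool of animals. In diestrus 117 of 4486 distal AP-1 regions (2.61%) rose after cocaine and 8 (0.178%) fell at a Benjamini-Hochberg adjusted p below 0.05, against 0.975% and 0.857% of all 46785 regions tested. The median log2 difference was 0.13 in distal AP-1 regions and 0.01 in all regions, and 66.7% against 50.7% lay above 0. The calls rested on single libraries. Without diestrus control library 2 or diestrus cocaine library 2, 0 rose and 0 fell (635 and 641 rose at an unadjusted p below 0.05), and 1 rose and 1 fell without control library 3. Without control library 1, 38 rose, and without cocaine library 3, 13 rose. Without cocaine library 1, 718 rose and 298 fell. The median stayed between 0.12 and 0.15 in all 6 of these.

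In proestrus 190 of 4249 distal AP-1 regions (4.47%) rose and 27 (0.635%) fell in limma at an adjusted p below 0.05. Of all 47171 regions 1.22% rose and 2.08% fell. The median log2 difference was 0.11 in distal AP-1 regions and -0.04 in all regions, with 64.5% and 44.0% above 0. Leaving out control libraries 1, 2 or 3 left 3, 9 and 27 that rose and 0 that fell, and leaving out cocaine libraries 1 or 4 left 42 and 53 that rose and 16 and 10 that fell. Without cocaine library 2, 996 (22.4%) rose and 103 (2.32%) fell, against 7.09% and 13.4% of all regions. The median of distal AP-1 regions lay between 0.07 and 0.17 in these 6 fits. Some marker promoters of other cells moved with treatment in females, and others did not. The summed fold enrichment at 4 astrocyte promoters was 3.74 to 4.36 in diestrus controls and 6.89 to 8.04 after cocaine, and 2.65 to 3.25 and 3.25 to 11.8 in proestrus, with 3 of 12 promoter and library pairs called in each control group and 7 and 6 after cocaine. In diestrus Aqp4 was called in 0 control and 3 cocaine libraries, Gfap in 3 and 3, Slc1a3 in 0 and 1, and Aldh1l1 in 0 and 0. Summed values at the 2 promoters of cortical excitatory neurons (Slc17a7 and Neurod6) were 3.53 to 15.2 and 0 to 13.7 in diestrus. In proestrus they were 8.55 to 10.4 and 0 to 2.72. There Slc17a7 was called in 3 control and 0 cocaine libraries, but Neurod6 in 0 and 2. Called pairs at oligodendrocyte promoters, controls then cocaine, numbered 3 and 3 of 9 in diestrus and 3 and 5 of 9 in proestrus. At precursor promoters they numbered 3 and 3 of 6, then 5 and 3 of 6. For microglia they were 5 and 2 of 12, then 4 and 3 of 12, and for endothelium 2 and 2 of 9, then 1 and 2 of 9. The part of these promoters in the result was not tested.

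**Figure D3:**
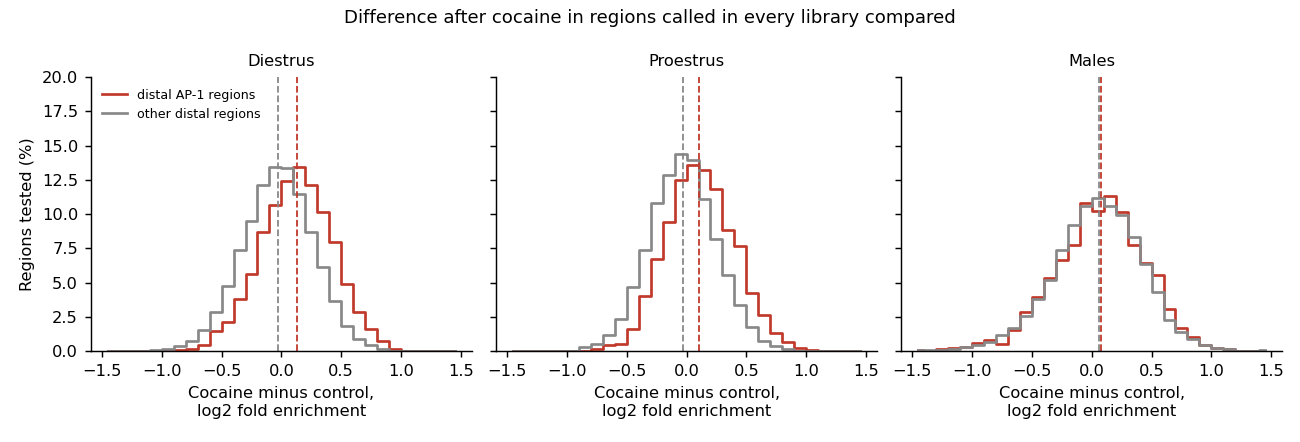
Log2 difference in fold enrichment, cocaine minus control, as the share (%) of regions tested per bin, for distal AP-1 regions (red) and other distal regions (grey) in diestrus, proestrus and males. Dashed lines mark the medians, which for distal AP-1 regions lie at 0.13, 0.11 and 0.08 and for other distal regions at -0.02, -0.03 and 0.06.

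The regions that rose in diestrus with the smallest p were not all low in controls. Those in Tdrd3 and Khdrbs2 lay below the median of called distal AP-1 regions in each diestrus control library. Those near Aldoart1 and Ghsr and in E130308A19Rik lay above it in some of these libraries and below it in others. The region near Aldoart1, a retrogene copy of aldolase A, lay between genes (chr4:72664112-72665032, 188 kb downstream of the start) and held 2 sites. Its fold enrichment was 4.13, 3.68 and 4.36 in diestrus controls and 7.72, 12.2 and 8.73 after cocaine. Proestrus controls had 4.01, 4.53 and 4.36, and proestrus cocaine libraries 8.61, 8.66 and 7.44. Cocaine libraries lay above all controls in both stages, whereas male controls (3.82, 5.78 and 4.28) overlapped with male cocaine libraries (4.92 and 3.14). The log2 difference was 1.18 ± 0.20 in diestrus (SE, limma adjusted p = 0.0107), 0.82 ± 0.16 in proestrus (adjusted p = 0.0111) and 0.30 ± 0.21 in males (adjusted p = 0.323).

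The region whose nearest start is that of Ghsr, the ghrelin receptor, lay in an intron of Fndc3b (chr3:27446436-27447298). Diestrus controls had 3.74, 4.58 and 4.57 and diestrus cocaine libraries 10.1, 9.69 and 6.66, without overlap. The log2 difference was 0.99 ± 0.17 (adjusted p = 0.0153), beside 0.55 ± 0.17 in proestrus (adjusted p = 0.075). Regions in introns of E130308A19Rik (chr4:59682405-59683059), Tdrd3 (chr14:87517032-87518268), a Tudor domain protein, and Khdrbs2 (chr1:32412587-32413135), an RNA-binding splicing regulator, rose by 0.96, 0.97 and 1.03 in log2. The region in Khdrbs2 had 2.32, 2.12 and 2.28 in diestrus controls and 4.15, 4.91 and 5.05 after cocaine. The regions in E130308A19Rik and Tdrd3 also passed in proestrus (0.70 and 0.64, adjusted p = 0.0215 and 0.0386) and in males (0.59 and 0.66, adjusted p = 0.0238 and 0.0121). The region in Khdrbs2 had no peak in any proestrus control library and was therefore not tested in proestrus. Its values in proestrus cocaine libraries were 4.01, 2.99 and 2.93.

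Of the 8 regions that fell in diestrus, 1 lay in an intron of Hmcn2, a hemicentin of the extracellular matrix (chr2:31442105-31443179). Its fold enrichment was 10.1, 15.1 and 13.3 in diestrus controls and 11.3, 5.79 and 4.94 after cocaine, a log2 difference of -0.91 ± 0.20 (SE, limma adjusted p = 0.0323). Diestrus cocaine library 1 thus lay within the controls, and libraries 2 and 3 lay below them. In proestrus controls had 8.13, 8.59 and 8.15 and cocaine libraries 7.11, 6.95 and 7.85, a difference of -0.30 ± 0.15 that did not pass (adjusted p = 0.262). Male controls had 17, 10.2 and 13.6 and male cocaine libraries 7.76 and 8.49, a log2 difference of -0.20 ± 0.15 after centring of each library on its median (adjusted p = 0.353). Regions near Fxyd5 (chr7:31017126-31018084), a sodium pump regulator, and in Camta1 (chr4:151411172-151412322), a calmodulin-binding transcription activator, and Cdh4 (chr2:179748761-179750162), a cadherin, had -1.12, -0.76 and -0.92 in diestrus. In those near Fxyd5 and Cdh4, diestrus cocaine library 1 (13.8 and 11) lay within or close to the controls, and libraries 2 and 3 lay below them.

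The regions that rose in proestrus with the smallest p were also higher after cocaine in diestrus. The region near Perp, a target of p53 that encodes a desmosomal membrane protein, was intergenic (chr10:18860746-18862107, 15.7 kb downstream of the start) and held 2 sites. Proestrus controls had 3.70, 4.18 and 4.27 and proestrus cocaine libraries 8.91, 9.09 and 9.63. In diestrus the values were 5.29, 6.14 and 6.85 and then 8.78, 12.1 and 9.19. Cocaine libraries lay above controls in each sex and stage, males included (3.82, 4.41 and 4.28 against 5.14 and 5.58). The log2 difference was 1.07 ± 0.16 in proestrus (SE, limma adjusted p = 0.0034), 0.87 ± 0.19 in males (adjusted p = 0.00131) and 0.68 ± 0.18 in diestrus, which missed the threshold (adjusted p = 0.0523).

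The region in Pde4d, a phosphodiesterase that degrades cAMP, lay 7.81 kb from the start (chr13:109693983-109695002) and also held 2 sites. It had 3.06, 3.36 and 3.79 in proestrus controls and 8.11, 7.27 and 7.02 after cocaine, a log2 difference of 1.02 ± 0.16 (limma adjusted p = 0.00489). It passed in diestrus (0.73 ± 0.19, adjusted p = 0.0477) and in males (0.67 ± 0.19, adjusted p = 0.0111) as well. Regions in Adamts6 (chr13:104447985-104448760), a secreted metalloprotease, and near Mllt3 (chr4:87749601-87750407), of the elongation machinery, and Lcorl (chr5:46220062-46221144), a corepressor-like factor, rose by 1.06, 1.01 and 0.89. Among the 5 leading regions, 3 (near Perp, Pde4d and Lcorl) held 2 sites.

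The regions that fell in proestrus with the smallest p were less changed. An intronic region of Igsf21, a synaptic adhesion molecule (chr4:140147599-140148804), had 8.24, 9.51 and 9.19 in proestrus controls and 6.21, 5.24 and 6.07 after cocaine, a log2 difference of -0.74 ± 0.15 (limma adjusted p = 0.0136). Regions near Kdm8 (chr7:124748001-124748947), in Gsg1l (chr7:126047293-126047947), which encodes an auxiliary subunit of AMPA receptors, in BC051142 (chr17:34438368-34439055) and near Fxyd5 had -0.81, -0.72, -0.70 and -0.73. The region near Fxyd5 was the 1 distal AP-1 region that fell in both stages.

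**Figure D4:**
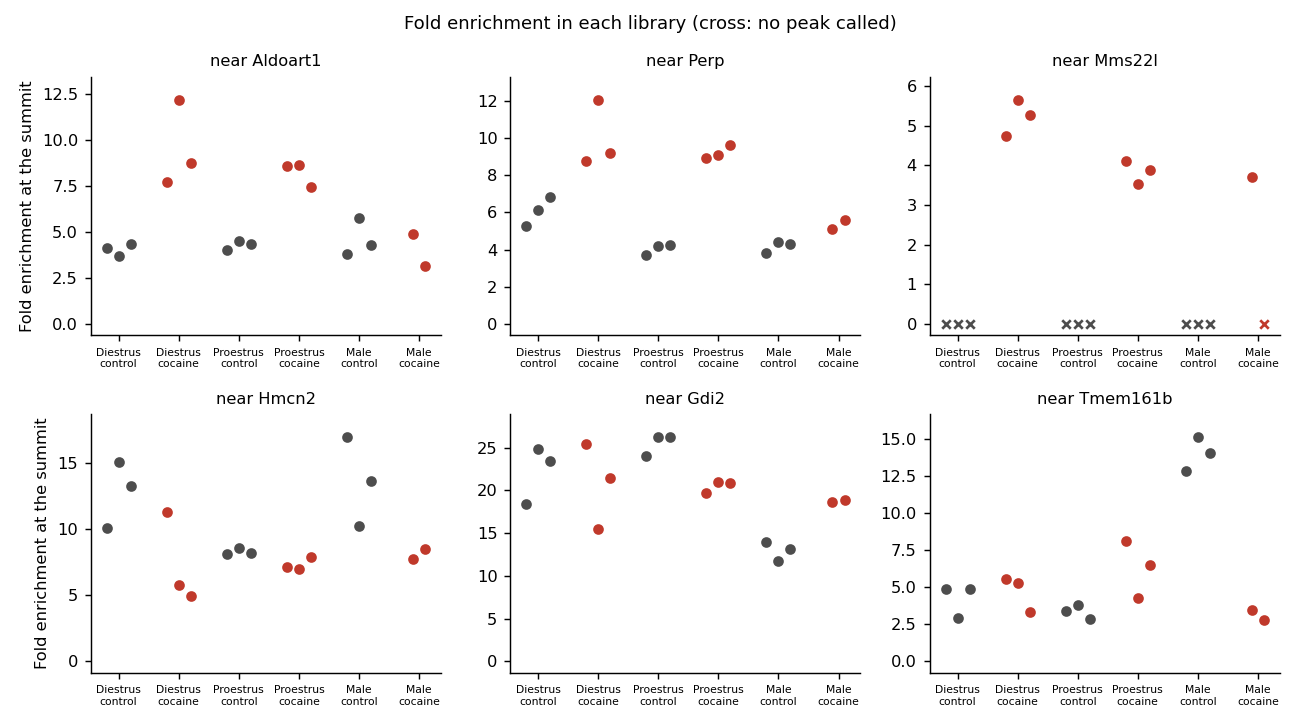
Fold enrichment at the summit in each library for 6 distal AP-1 regions, controls in grey and cocaine in red, with a cross at 0 where no peak was called. The regions near Aldoart1, Perp and Mms22l are higher in every female cocaine library than in every female control, and those near Hmcn2, Gdi2 and Tmem161b show the diestrus and male differences given in the text.

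Distal AP-1 regions that rose in one stage lay mostly above 0 in the other, measured against separate controls. Of the 117 distal AP-1 regions that rose in diestrus, 103 were tested in proestrus, 103 of these had a difference above 0 and 27 also passed the test, with a median of 0.50. Those 27 were 23.1% of the 117 and 14.2% of the 190 that rose in proestrus. Of the 190, 177 of 182 tested in diestrus lay above 0, with a median of 0.51. All regions that rose gave similar counts, 405 of 414 and 515 of 536. In males 52 of 85 and 115 of 163 of the same distal AP-1 regions lay above 0, with medians of 0.11 and 0.18. A direct test of the difference between the effects in diestrus and proestrus, in a limma model of all 17 libraries over 36170 regions, called 0 of 3189 distal AP-1 regions in either direction (0% of all regions higher, 0.00553% lower). At an unadjusted p below 0.05, 71 were higher and 94 lower in diestrus, and the smallest adjusted p was 0.307.

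In males distal AP-1 regions rose and fell in more nearly equal numbers. Of 3726 distal AP-1 regions 477 (12.8%) rose and 335 (8.99%) fell after cocaine in limma, where 15.5% and 6.49% of all 42857 regions did. The median log2 difference was 0.08 in distal AP-1 regions and 0.12 in all regions. The split depended on the scaling, and quantile normalization moved the median of all regions to 0.02. Then 274 distal AP-1 regions (7.35%) rose and 385 (10.3%) fell, against 6.93% and 8.47% of all regions. Without male cocaine library 1, 139 rose and 138 fell, and without library 2, 149 rose and 176 fell. Without control library 3 the counts were 300 and 185. Male controls had peaks at Slc17a7 and Neurod6 in 6 of 6 promoter and library pairs (summed fold enrichment 18.9 to 22.4). Male cocaine libraries had them in 0 of 4. Summed values at the 4 astrocyte promoters were 7.71 to 10.9 in controls and 0 to 2.79 after cocaine. At oligodendrocyte promoters they were 10.5 to 13.1 and 9.53 to 10.8, with 3 of 9 and 2 of 6 pairs called. Called pairs at precursor promoters were 4 of 6 and 1 of 4. For microglia they were 3 of 12 and 1 of 8, and for endothelium 0 of 9 and 0 of 6. The male cocaine libraries also had the fewest peaks of all libraries. The part of these promoters and of the peak numbers in the male result was not tested.

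The regions that fell in males stood out by the level of the male controls. The region near Tmem161b was intergenic (chr13:84612874-84613551, 362 kb downstream of the start), with its site at the edge of the window. It had 12.9, 15.1 and 14.1 in male controls and 3.50 and 2.79 after cocaine, and the 12 female libraries ranged from 2.84 to 8.11. The log2 difference was -1.65 ± 0.16 (SE, limma adjusted p = 2.14e-09). The region near Dnajb9, an endoplasmic reticulum chaperone (chr12:43826545-43828152, 2 sites), had 19.6, 20.8 and 20.4 in male controls, 6.01 and 6.51 after cocaine and 5.88 to 13.3 in females. Regions near Ide (chr19:37254388-37256659), the insulin-degrading enzyme, in Cflar (chr1:58739374-58741051), an inhibitor of caspase-8, and near Zfp281 (chr1:136713713-136714863), a transcription factor, had log2 differences of -1.49, -1.55 and -1.38. In all 5 regions the 3 male controls lay above the other 14 libraries.

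Among regions that rose in males, the one with the smallest p had its lowest values in the male controls. The intergenic region near Gdi2, a regulator of Rab proteins (chr13:3372761-3374414), had 14, 11.7 and 13.2 in male controls and 18.7 and 18.8 after cocaine. Female controls ranged from 18.5 to 26.3 and female cocaine libraries from 15.5 to 25.4. The male log2 difference was 1.05 ± 0.12 (SE, limma adjusted p = 9.75e-08). Regions near Hspa4 (chr11:53139863-53141565, in an intron of Fstl4), in Caln1 (chr5:130770386-130775769), a neuronal calcium-binding protein, in Arhgef18 (chr8:3414776-3416883), a guanine nucleotide exchange factor, and near BC052040 (chr2:115398644-115400001) rose by 1.17, 1.24, 1.04 and 1.12. Those near Hspa4, Arhgef18 and BC052040 also rose in proestrus (0.56, 0.73 and 0.79, adjusted p = 0.0498, 0.0224 and 0.0131).

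The effect of cocaine differed between males and females in more distal AP-1 regions with a lower than with a higher male value. In the model of all 17 libraries the male effect minus the mean female effect was lower in 423 (13.3%) and higher in 185 (5.80%) of 3189 distal AP-1 regions at a limma adjusted p below 0.05. Of all 36170 regions 6.6% were lower and 12% higher. The median of this difference was -0.10 in distal AP-1 regions and 0.07 in all regions. The counts fell to 167 lower and 50 higher without male cocaine library 1, and to 174 and 88 without library 2. Without proestrus cocaine library 2, 574 (17.9%) were lower, against 8.11% of all regions. With uncalled libraries set to their smallest fold enrichment the order was reversed. Then 1225 (10.5%) of the distal AP-1 regions tested were higher and 1119 (9.61%) lower, against 22.1% and 5.05% of all regions. The median was then 0.07 in distal AP-1 regions and 0.24 in all regions.

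The size of the female difference went with the number of sites. Distal AP-1 regions with 2 or more sites had a median log2 difference of 0.29 in diestrus (423 tested) and 0.24 in proestrus (397 tested), and those with 1 site 0.12 and 0.09. The shares above 0 were 79.0% and 79.6% for 2 or more sites and 65.4% and 63.0% for 1 site. In males the medians were 0.10 and 0.08. Distance of the site from the summit had less to do with it, since sites within 20 bp gave 0.15 and 0.11 in diestrus and proestrus, and sites over 50 bp away 0.10 and 0.09. Other distal regions with a site over 100 and up to 200 bp from the summit had 0.05 and 0.02, and those with none within 200 bp had -0.03 and -0.04. Intergenic regions had larger medians (0.17 and 0.14) than intronic ones (0.11 and 0.09) in females. These medians are descriptions without a test.

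**Figure D5:**
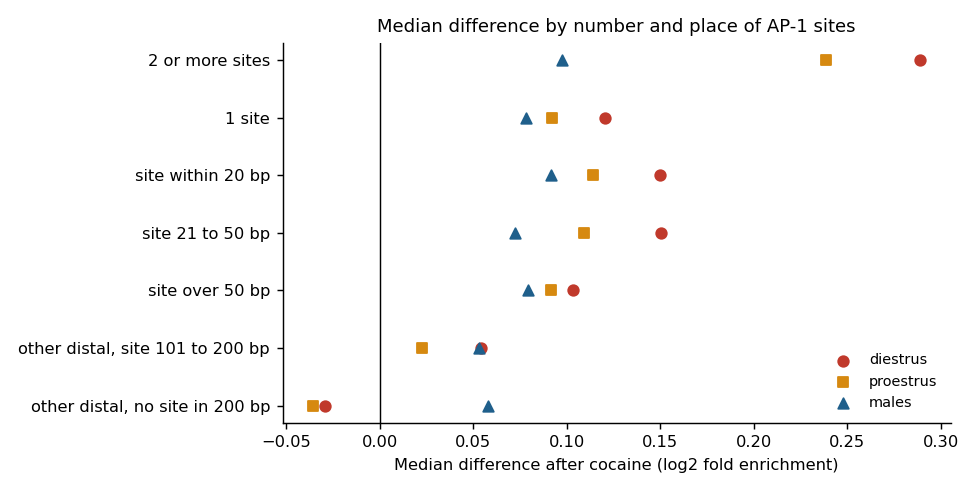
Median log2 difference in fold enrichment after cocaine in diestrus (circles), proestrus (squares) and males (triangles) by the number of AP-1 sites and the distance of the nearest site from the summit, with 2 sets of other distal regions at the bottom. Regions with 2 or more sites have the highest female medians (0.29 and 0.24), while the male medians of all sets lie between 0.05 and 0.10.

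Without cocaine, the stages differed in few distal AP-1 regions and in few of all regions. Comparing controls, 103 of 4260 (2.42%) were higher and 41 (0.962%) lower in diestrus than in proestrus in limma at an adjusted p below 0.05. Of all 49490 regions 1.86% were higher and 1.72% lower. In the model of all 17 libraries 10 distal AP-1 regions (0.314%) were higher and 0 lower, beside 0.196% and 0.102% of all regions. Leaving out 1 control library gave 33 to 163 and 14 to 74, with the fewest higher without diestrus control library 3 and the fewest lower without proestrus control library 2. Among named genes, a region in an intron of Esr1, the estrogen receptor alpha gene (chr10:4683888-4684713), had 8.13, 6.59 and 8.20 in diestrus controls and 4.54, 4.06 and 3.98 in proestrus controls. The log2 difference was 0.66 ± 0.16 (adjusted p = 0.00968). After cocaine its values were 9.26, 6.16 and 4.71 in diestrus and 6.31, 4.38 and 4.92 in proestrus, overlapping with their controls.

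Around the genes of AP-1 subunits themselves, 8 distal AP-1 regions were nearest to 6 of 11 genes, and 0 of 5 tested in diestrus and 0 of 6 tested in proestrus rose or fell in limma (2.61% and 4.47% of all distal AP-1 regions rose). An intronic region 14.8 kb upstream of Fosb (chr7:19324865-19329236) had 6.84 to 9.94 in diestrus controls, 5.40 to 11.1 after cocaine, and 7.77 to 9.40 and 5.86 to 8.77 in proestrus, with overlapping ranges. In males it had 8.16, 5.37 and 6.48 and then 7.0 and 6.74, which after centring was 0.57 ± 0.17 in log2 (limma adjusted p = 0.0162). Within 100 kb of the start of Fos lay 2 regions. The one 44.7 kb downstream (chr12:85519563-85519920, 2 sites) was gained in proestrus, with no peak in controls and 3.71, 2.35 and 3.04 after cocaine. It was already called in all diestrus controls (3.10, 3.01 and 3.42) and all male controls (3.57, 3.44 and 3.73). The other (chr12:85569583-85570080), nearest to Jdp2, was called in 16 libraries and was not gained or lost. The region near Jun (chr4:95187843-95188767, 136 kb upstream) had 4.88 to 6.33 in diestrus controls and 6.65 to 10.3 after cocaine without overlap, with a log2 difference of 0.51 ± 0.20 (adjusted p = 0.139).

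Near genes that respond to neuronal activity, few distal AP-1 regions passed the test and most female differences lay above 0. For 13 such transcription factor genes, including the Egr and Nr4a families, 10 regions were nearest to 5 genes. In limma 0 of 6 rose or fell in diestrus, 0 of 5 in proestrus and 0 of 5 in males. The differences lay above 0 in 6 of 6, 5 of 5 and 1 of 5, with medians of 0.29, 0.32 and -0.06, beside 0.13, 0.11 and 0.08 for all distal AP-1 regions. The region 10.9 kb upstream of Egr2 (chr10:67523916-67524589) had 4.24 to 7.16 in diestrus controls and 4.82 to 7.12 after cocaine, and 4.36 to 4.64 and 5.61 to 6.81 in proestrus. It overlapped between groups in diestrus and did not in proestrus, where the log2 difference was 0.32 ± 0.17 (limma adjusted p = 0.28).

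For 25 genes of activity-regulated effectors (signalling, synaptic and secreted proteins), 59 regions were nearest to 15 genes. In diestrus 2 of 24 rose, near Rgs2 and Scg2, in proestrus 1 of 22 rose, near Dusp4, and none fell. In diestrus and proestrus 2.61% and 4.47% of all distal AP-1 regions rose. In males 2 of 19 rose and 4 fell, where 12.8% and 8.99% of all distal AP-1 regions did. The difference between the sexes was lower in males for 7 of 19 and higher for 1, with 13.3% lower and 5.80% higher among all distal AP-1 regions. A region 233 kb upstream of Inhba, which encodes a subunit of activin (chr13:15775982-15778665), had 8.13, 7.59 and 8.30 in diestrus controls and 12.6, 13 and 12.2 after cocaine. It had 7.39, 6.61 and 7.87 in proestrus controls and 11.6, 9.84 and 10.9 after cocaine. Male controls had 11.2, 11 and 10.2 and male cocaine libraries 8.53 and 6.63. Before centring, the ranges did not overlap in any of the 3 comparisons, with higher values after cocaine in females and lower ones in males. The log2 difference missed the threshold in diestrus (0.62 ± 0.17, limma adjusted p = 0.0523), in proestrus (0.45 ± 0.15, adjusted p = 0.0977) and, after centring, in males (-0.01 ± 0.15, adjusted p = 0.958). The male effect minus the female effect was -0.59 ± 0.20 (adjusted p = 0.0338). The same contrast was -0.72 ± 0.19 (adjusted p = 0.00957) at a region 11.3 kb upstream of Dusp6, a phosphatase of ERK (chr10:99250170-99251936). The most accessible region of this list, near Dusp4 (chr8:34611561-34613787, 3 sites), ranged from 11.3 to 25.6 over the 17 libraries and did not pass any of these tests.

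Distal AP-1 regions near genes of medium spiny neurons, the main cell type of the nucleus accumbens, mostly did not pass the test in females. For 29 such genes 73 regions were nearest to 22. In limma 0 of 33 rose or fell in diestrus, 1 of 31 rose in proestrus, and 6 of 21 rose and 1 fell in males. Of all distal AP-1 regions, 2.61% rose in diestrus, 4.47% in proestrus and 12.8% in males, where 8.99% fell. Of all regions, 0.975% rose in diestrus, 1.22% in proestrus and 15.5% in males, where 6.49% fell. The medians were 0.00, -0.05 and 0.35, beside 0.13, 0.11 and 0.08 for all distal AP-1 regions. A region 12.5 kb upstream of Pdyn, the precursor of dynorphin (chr2:129712380-129714070), had 10.6, 9.50 and 11.4 in male controls and 11.6 and 9.88 after cocaine. These overlapped before centring, and the centred log2 difference was 0.54 ± 0.14 (adjusted p = 0.0055). In diestrus it had 15.1, 16.7 and 18 and then 20.3, 14 and 9.30. A region 257 kb upstream of Penk, the precursor of enkephalin (chr4:4395985-4398916), had a male difference of 0.38 ± 0.13 (adjusted p = 0.03). The most accessible, 336 kb upstream of Rarb, a retinoic acid receptor (chr14:17155275-17157473), ranged from 12.4 to 26.8.

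Of 36 genes of glutamate and GABA receptors, 22 had 134 nearest distal AP-1 regions. In limma 0 of 39 rose or fell in diestrus and 0 of 41 in proestrus, with medians of 0.08 and 0.06. Of all distal AP-1 regions 2.61% and 4.47% rose, with medians of 0.13 and 0.11. In males 4 of 33 rose and 6 fell, with a median of 0.03. The share that rose was near the 12.8% of all distal AP-1 regions, of which 8.99% fell. The region nearest to Gabrg1, a GABA-A receptor subunit (chr5:70251451-70253701, 589 kb from the start), had 20.9, 25.2 and 20.6 in male controls and 8.20 and 7.56 after cocaine, and 11.8 to 20.4 in females. The 2 male cocaine libraries had the lowest values of all 17, and the male log2 difference was -0.98 ± 0.13 (adjusted p = 1.08e-06). A region in an intron of Gabrb1 (chr5:71827263-71830950) fell by 0.53 in males (adjusted p = 0.00298). Near Gria4 (chr9:4638497-4640437), an AMPA receptor subunit gene, the values ranged from 10.4 to 21.1 and no test passed.

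For 19 genes of opioid, cannabinoid, stress and steroid signalling, 19 regions were nearest to 11. In limma 1 of 10 rose in diestrus and 0 of 6 in proestrus or males rose or fell, beside 2.61% of all distal AP-1 regions that rose in diestrus. In proestrus 3 of the 19 were gained, 2 near Oprm1, the mu opioid receptor gene, and 1 near Esr1, while 4.61% of all distal AP-1 regions and 2.42% of all kept regions were. The region that rose lay in an intron of Arhgap10, with Nr3c2, the mineralocorticoid receptor gene, as the nearest start (chr8:77261987-77263710, 134 kb). It had 6.58, 6.48 and 6.12 in diestrus controls and 10.9, 11.9 and 9.42 after cocaine, and 4.86, 5.11 and 5.59 and then 8.51, 7.27 and 8.48 in proestrus. Cocaine libraries lay above controls in both stages, with log2 differences of 0.71 ± 0.17 (adjusted p = 0.035) and 0.52 ± 0.16 (adjusted p = 0.0634). In males, 7.65, 9.36 and 6.92 were followed by 5.79 and 5.0 after cocaine, with a centred difference of -0.05 ± 0.17 (adjusted p = 0.876). Another region, 11.1 kb upstream of Nr3c2 (chr8:77114322-77116872), had 7.16 to 7.75 and 8.27 to 10.7 in diestrus, without overlap, and a log2 difference of 0.31 ± 0.16 (adjusted p = 0.27).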

How the data were processed

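The data were 17 peak lists, 1 for each ATAC-seq library. Reads had been trimmed and mapped to mm10 (BWA-MEM) by the authors, who ran MACS2 on every library by itself. Its version and options were not given in the sources used here. The deposited columns were a score, the fold enrichment at the summit (a ratio) and the −log10 of p and of q, all computed by the authors within a library and not normalized between libraries. The authors tested read counts with DESeq2, which were not used here, so fold enrichments and calls were compared instead. The smallest peaks had 15 to 20 reads at the summit, and distal AP-1 regions a median of 30 to 38 reads per library, obtained from the steps of the fold enrichment (100% whole within 0.02 reads).

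Overlapping peaks were merged, and transcript starts and sequence came from GENCODE M21 and GRCm38.p6, the build of the files. Groups came from the sample labels. Fold enrichment was taken on a log2 scale, centred on the median of each library, and tested with limma 3.58.1 (R 4.3.3; lmFit, eBayes with trend, two-sided, Benjamini-Hochberg over all regions of a fit). Calls were tested with Fisher's exact test (scipy 1.17.1). With 3 libraries against 3, a single region's calls cannot give a p below 0.1, so gained and lost regions carry no p. Scripts were tested on simulated data. Alternatives were other scalings, thresholds, filters, a replicate block and leaving out each library. The regions, gene lists and tests were chosen with earlier results of these data known. Regions named were the 5 with the highest median fold enrichment, the 5 with the smallest p in each direction and cocaine comparison, the 8 most enriched after cocaine of those gained in both stages, up to 3 for each gene list, those within 100 kb of Fos, and the 10 genes with most regions. One region that fell in diestrus is not reported here. The region near Khdrbs2 and others without a peak in a library of a comparison were not tested there.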

Additional observations from a re-analysis of the deposited data

Results flagged for a closer look

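The effect of cocaine on fold enrichment differed between the sexes in several distal AP-1 regions when the difference itself was tested, as the male effect minus the mean of both female effects in a limma model of all 17 libraries with Benjamini-Hochberg adjustment over 36170 regions. It was higher in males in 185 regions and lower in 423, beside 12% higher and 6.6% lower of all regions.

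Regions named for their female differences were among them. On the log2 scale the male minus female effect was -0.74 near Aldoart1 and -0.69 in Camta1, and 0.84 in Cdh4, 0.87 in Gsg1l and 0.95 in BC051142. Of the regions that rose in males, it was 1.29 near Gdi2, 0.87 near Hspa4, 1.13 in Caln1 and 0.80 in Arhgef18. Of those that fell in males, it was -2.14 near Tmem161b, -1.70 near Ide, -1.70 near Dnajb9, -1.65 in Cflar and -1.33 near Zfp281. All these regions were named for a female or a male difference, each of which is a part of the difference between the sexes, so the latter is not independent of that choice.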

How the results depend on the processing

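Peak calls set the limits: a region with under 15 to 20 reads at its summit was not called, values were not normalized between libraries by the authors, and with 2 or 3 libraries a group single libraries decided many calls. Counts that moved by over 1.5 times are given here, and the cause was not tested where none is stated. Counts within that range of the reported ones under the other alternatives are not repeated. The higher-than-lower order of calls in diestrus and proestrus held in every fit that called any region, except the one without diestrus control library 3 (1 and 1).

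With the motif within 50 bp of the summit there were 6699 regions, so fewer could be gained or lost: 193 and 22 for diestrus, 312 and 30 for proestrus, and 45 and 1153 for males. Keeping only peaks of −log10 q of 5 or more, 31 were lost in diestrus, 29 in proestrus, and 39 gained in males. With equal numbers of peaks, 33 were lost in diestrus and 38 in proestrus, beside 0.757% and 0.818% of all kept regions. In males 234 were then gained and 822 lost, beside 2.63% and 5.95% of all kept regions. These last 2 alternatives were also applied, after the data had been seen, to the excess of called distal AP-1 over other distal regions, which in males, cocaine minus control, was 0.260 and -0.722 points, a change of sign.

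In limma, quantile normalization gave 15 lower in diestrus and 274 higher in males, and centring within bins of GC content 24 lower in diestrus. Under the latter the median of distal AP-1 regions was 0.10 in diestrus and 0.07 in proestrus, against 0.01 and -0.02 for all regions. In a model of all 17 libraries, 340 (10.7%) were higher and 59 (1.85%) lower in diestrus, beside 6.38% and 4.77% of all regions. There 16 were lower in proestrus, beside 1.95% of all regions. In males 224 were higher and 169 lower, beside 5.78% and 4.08% of all regions. In diestrus against proestrus controls 10 were higher and 0 lower, beside 0.196% and 0.102% of all regions. Setting uncalled libraries to their smallest fold enrichment tests more regions. It gave 323 higher and 14 lower in diestrus, beside 1.17% and 0.635% of all regions. In proestrus it gave 450 and 55, beside 1.46% and 2.07%, and in males 1341 higher, beside 18.2%. For the sex difference it gave 1225 higher and 1119 lower, beside 22.1% and 5.05%, the reverse of the reported order. It gave 12 and 1 for the stage difference, and 193 and 95 for the controls. Only peaks of −log10 q of 5 or more left 13 lower in proestrus.

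The correlation of their deviations over 36170 regions was -0.29, 0.02 and -0.14 for diestrus, 0.20 and 0.12 for proestrus, and 0.02 and 0.02 for males. Since not every pair exceeded 0.1, the numbers were not taken to pair libraries, although both proestrus pairs did. With the replicate block, 0 were higher and 0 lower in diestrus (780 and 177 at an unadjusted p below 0.05), 80 and 13 for proestrus, 314 and 222 for males, and 164 and 68 between controls. With the replicate block and GC bins, 54 were higher in diestrus, 94 in proestrus, and 182 higher and 79 lower between controls.

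Leaving out 1 library at a time gave 384 to 568 gained and 55 to 470 lost for diestrus, 629 to 1263 and 92 to 170 for proestrus, and 112 to 238 and 2330 to 2847 for males. In limma it gave 0 to 718 higher and 0 to 298 lower for diestrus, 3 to 996 and 0 to 103 for proestrus, 139 to 574 and 138 to 347 for males, 50 to 312 and 167 to 574 for the sex difference, 0 to 0 and 0 to 6 for the stage difference, and 33 to 163 and 14 to 74 between controls. Where a group was left with 1 library, that library was assumed to vary like the others. Of the named regions, those of diestrus kept their call in 52 of 64 fits under other settings and in 25 of 60 with a library left out, those of proestrus in 59 of 65 and 38 of 60, and those of males in 68 of 68 and 50 of 50. None changed direction.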
